A study of Mus musculus with 25 samples.

Results

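Genes of T cells and regulatory T cells were followed through a mouse colitis experiment: Cd3e, Cd4, Cd8a, Foxp3, Il10, Ctla4, Icos, Il2ra, Tnfrsf4 and Gzmb. Probes were assigned to genes by RefSeq accession, then by gene symbol, and otherwise by the name in the array file. The 10 genes were measured by 13 of the 55681 probes of the array, and 9 of them were among the 25448 genes or unnamed probes that could be tested. Colon RNA was hybridised to 25 single-colour arrays. The mice were females of the C57BL/6j strain, 8 weeks old, and either wild type (WT) or Card9-/- on that background. Mice were taken untreated (day 0, 3 WT and 3 Card9-/- arrays), after 7 days of 2% dextran sulfate sodium (DSS) in the drinking water (day 7, 5 WT and 4 Card9-/- arrays), or after 5 further days on plain water (day 12, 5 arrays each). DSS injures the colonic epithelium, and Card9 encodes an adaptor of myeloid cells that relays signals from fungal receptors. The labels do not name the segment of colon. The p-values of the main fit set each difference of group means against the spread between these samples, estimated over all 6 groups.

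The T cell receptor signals through the CD3 chains, with CD4 or CD8 as co-receptor, and marks the cell as a T cell. Activated T cells then raise the interleukin-2 receptor alpha chain (Il2ra, CD25), the co-stimulatory receptors ICOS (Icos) and OX40 (Tnfrsf4) and the inhibitory receptor CTLA-4 (Ctla4), and cytotoxic cells load granules with granzyme B (Gzmb). Regulatory T cells, defined by the transcription factor Foxp3, carry Il2ra, Ctla4, Icos and Tnfrsf4 even at rest, restrain inflammation in the colon and can secrete interleukin-10 (Il10).

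The arrays had between 25893 and 37326 probes well above background, and all 13 colon epithelial markers were well above background on every array. The Card9 probe read -1.52 to -0.48 on the 12 arrays labelled Card9-/- and -6.84 to -2.93 on the 13 arrays labelled WT, where it was above background on 2, so this probe was brighter in the arrays labelled as lacking the gene. Every statement on genotype therefore refers to the label only, and which probe sequence remains in the Card9-/- allele was not tested. The 4 arrays of replicates 2 and 3 of Card9-/- at day 7, replicate 1 of Card9-/- at day 12 and replicate 5 of WT at day 12, carried strong signal of pancreatic acinar genes (mean of 11 genes 7.86 to 14.38 above WT day 0 on the log2 scale). Replicates 1 and 2 of the Card9-/- day 0 group had means of 6 proximal colon Hox genes of 2.76 and 2.16 on that scale, WT day 7 replicate 1 had 2.62 and WT day 12 replicate 4 had 1.27, while the other 21 arrays lay between -0.75 and 0.78. Many results that rest on these arrays are given with and without them or with the Hox mean as a covariate. The counts of markers of other cells are not.

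Levels below are log2 of the processed signal relative to the 75th percentile of the same array. They compare samples for a single probe, never one gene with another. The probes lie, in mm9 coordinates of the array files, at chr9:44806828-44806887 (Cd3e), chr6:124814711-124814770 and chr6:124817706-124817765 (Cd4), chr6:71323885-71323944 and chr6:71328911-71328970 (Cd8a), chrX:7172301-7172360 (Foxp3) and chr1:132920943-132921002 (Il10). Those of the other genes lie at chr1:60971801-60971860 (Ctla4), chr1:61057105-61057164 and chr1:61055103-61055162 (Icos), chr2:11614744-11614803 (Il2ra), chr4:155390639-155390698 (Tnfrsf4) and chr14:56877916-56877975 (Gzmb). Exon and UTR were not assigned, as no mm9 annotation was used. Of the 10 genes, 9 passed the filter, which asked for a probe well above background on at least 3 of 25 arrays. The probe for Il10 was above background on none and was not tested, and 1 probe each of Cd4 and Cd8a, above background on 2 arrays, also failed.

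Of the genes called higher in the arrays labelled Card9-/- at day 7, Il2ra, Tnfrsf4 and Gzmb have a promoter window in the RefSeq table of GRCm38.p6, and these windows are shown because they are the regulatory DNA nearest to the changes described below. Each is the 250 bases before the annotated start, written in the direction of transcription, in lower case. Capitals mark matches on either strand to GGAAA (the core bound by NFAT, the calcium-driven factor of T cell receptor signalling), to TGANTCA (AP-1) or to TGTGGT (Runx). Matches of different motifs did not overlap. The windows lie at chr2:11642542-11642791 (plus strand, Il2ra), chr4:156013445-156013694 (plus strand, Tnfrsf4) and chr14:56262335-56262584 (minus strand, Gzmb).
Il2ra: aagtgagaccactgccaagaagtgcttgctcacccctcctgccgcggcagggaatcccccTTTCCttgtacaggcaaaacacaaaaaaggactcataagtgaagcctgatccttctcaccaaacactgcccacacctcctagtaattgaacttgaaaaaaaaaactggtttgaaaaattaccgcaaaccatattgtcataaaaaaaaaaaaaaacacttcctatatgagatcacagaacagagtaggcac
Tnfrsf4: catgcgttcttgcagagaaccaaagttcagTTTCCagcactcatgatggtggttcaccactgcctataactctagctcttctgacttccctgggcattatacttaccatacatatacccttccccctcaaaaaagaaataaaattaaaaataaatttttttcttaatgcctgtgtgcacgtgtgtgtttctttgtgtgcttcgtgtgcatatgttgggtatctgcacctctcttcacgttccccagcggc
Gzmb: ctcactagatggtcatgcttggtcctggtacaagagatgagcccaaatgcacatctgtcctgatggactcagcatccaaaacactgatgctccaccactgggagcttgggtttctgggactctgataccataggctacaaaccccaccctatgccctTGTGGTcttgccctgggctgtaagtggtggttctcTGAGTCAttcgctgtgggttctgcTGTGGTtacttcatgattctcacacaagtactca

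Il2ra and Tnfrsf4 each held 1 GGAAA match, 190 and 220 bases before the start, both on the minus strand. Gzmb held 1 TGANTCA match 58 bases before the start and 2 TGTGGT matches 93 and 34 bases before it. Of 32851 windows of this length in the table, 55.6% held GGAAA, 6.7% TGANTCA and 14.0% TGTGGT. Windows were matched for 7 of the 10 genes; Cd4, Il10 and Icos were not matched. A match is a description of the letters and not a binding site.

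In the arrays labelled Card9-/-, Il2ra, Icos, Tnfrsf4 and Gzmb rose between day 0 and day 7, while Cd3e, Cd4, Cd8a, Foxp3 and Ctla4 did not pass the test. The comparison asks how the colon changed under DSS within a genotype. Of 9 tested genes, 4 were called higher and none lower, where 19.7% of all genes were called in this comparison and 6.93% were called higher (limma, adjusted p under 0.05). The median change of the 9 was 1.06 on the log2 scale, beside -0.081 over all genes. Each of the 4 calls was kept in all 37 alternative settings.

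Tnfrsf4, which encodes OX40 and was well above background on all 25 arrays, read -1.92, -2.02 and -1.67 in the arrays labelled Card9-/- at day 0. At day 7 the 4 arrays read -0.02, 0.11, -0.48 and 0.37, and at day 12 the 5 arrays read -1.14, -1.19, -0.64, -0.74 and -0.9. All day 7 arrays lay above all day 12 arrays, which in turn lay above all day 0 arrays. Tnfrsf4 rose 3.63-fold by day 7 (log2 difference 1.86 ± 0.21 SE, limma adjusted p = 1.28e-05), fell by 0.92 ± 0.19 from day 7 to day 12 (limma adjusted p = 0.00714) and stayed 0.95 ± 0.21 above day 0 at day 12 (limma adjusted p = 0.00826).

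Il2ra, the alpha chain that gives the interleukin-2 receptor its high affinity, read -6.52, -6.56 and -6.02 at day 0 in the arrays labelled Card9-/-, not well above background on any. At day 7 it read -1.63, -1.45, -1.72 and -1.01, above background on all 4. At day 12 it read -3.75, -4.03, -2.82, -3.17 and -3.1, above background on 3. The 3 days again did not overlap. The measured log2 difference at day 7 was 4.92 ± 0.54 (limma adjusted p = 9.52e-06). Since day 0 gives only a bound, the rise was at least 9.13-fold, with the day 7 mean set against a floor taken on each day 0 array (the dimmest reading that still counted as well above background there, or the Il2ra reading if that was brighter). Il2ra fell by 1.92 ± 0.48 by day 12 (limma adjusted p = 0.0179) and was then at least 2.41-fold above day 0 (3.00 ± 0.52, limma adjusted p = 0.00177). The difference from day 0 at day 12 was not called with normexp (0.63, limma adjusted p = 0.085) or in the deposited value table (0.85, limma adjusted p = 0.0592).

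Icos, the receptor for ICOS ligand that supports follicular helper and regulatory T cells, read -6.79, -4.81 and -4.79 at day 0, -1.79, -1.81, -1.87 and -1.29 at day 7, and -2.29, -2.7, -1.91, -1.67 and -1.75 at day 12 in the arrays labelled Card9-/-. It was above background on no day 0 array and on all 9 later ones. Days 7 and 12 overlapped and both lay above day 0. The rise by day 7 was at least 7.75-fold (log2 difference 3.77 ± 0.55, limma adjusted p = 9.84e-05) and by day 12 at least 5.98-fold (3.40 ± 0.53, limma adjusted p = 0.000685). Icos was not called between day 7 and day 12 (-0.37 ± 0.48, limma adjusted p = 0.728), and whether its change differed from those of Il2ra and Tnfrsf4 was not tested. The other Icos probe ran the same way, from -7.14, -6.78 and -5.18 at day 0 to -3.12, -3.38, -3.33 and -3.12 at day 7.

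Gzmb, the granule protease of cytotoxic lymphocytes, read -4.11, -4.44 and -3.88 at day 0 and -1.04, -1.51, -2.04 and -0.79 at day 7 in the arrays labelled Card9-/-. The groups did not overlap, and the measured rise was 6.95-fold (log2 difference 2.80 ± 0.63, limma adjusted p = 0.00328), but only 1 of the 3 day 0 arrays, replicate 1, was well above background, so the fold rests partly on readings at background. At day 12 the 5 arrays read -1.87, -3.22, -2.13, -1.67 and -2.03, all above day 0, with a difference of 1.96 ± 0.60 that missed the threshold (limma adjusted p = 0.0519). That difference was called without WT day 0 replicate 1 (1.96, limma adjusted p = 0.0365) or 2 (1.96, limma adjusted p = 0.0093) and without WT day 7 replicate 2 (1.96, limma adjusted p = 0.0446) or 3 (1.96, limma adjusted p = 0.0454). These arrays lie outside the comparison, but all groups share 1 estimate of the spread. Leaving out Card9-/- day 12 replicate 2, an array of the comparison, raised the difference itself, and it was called (2.22, limma adjusted p = 0.0368).

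**Figure D1:**
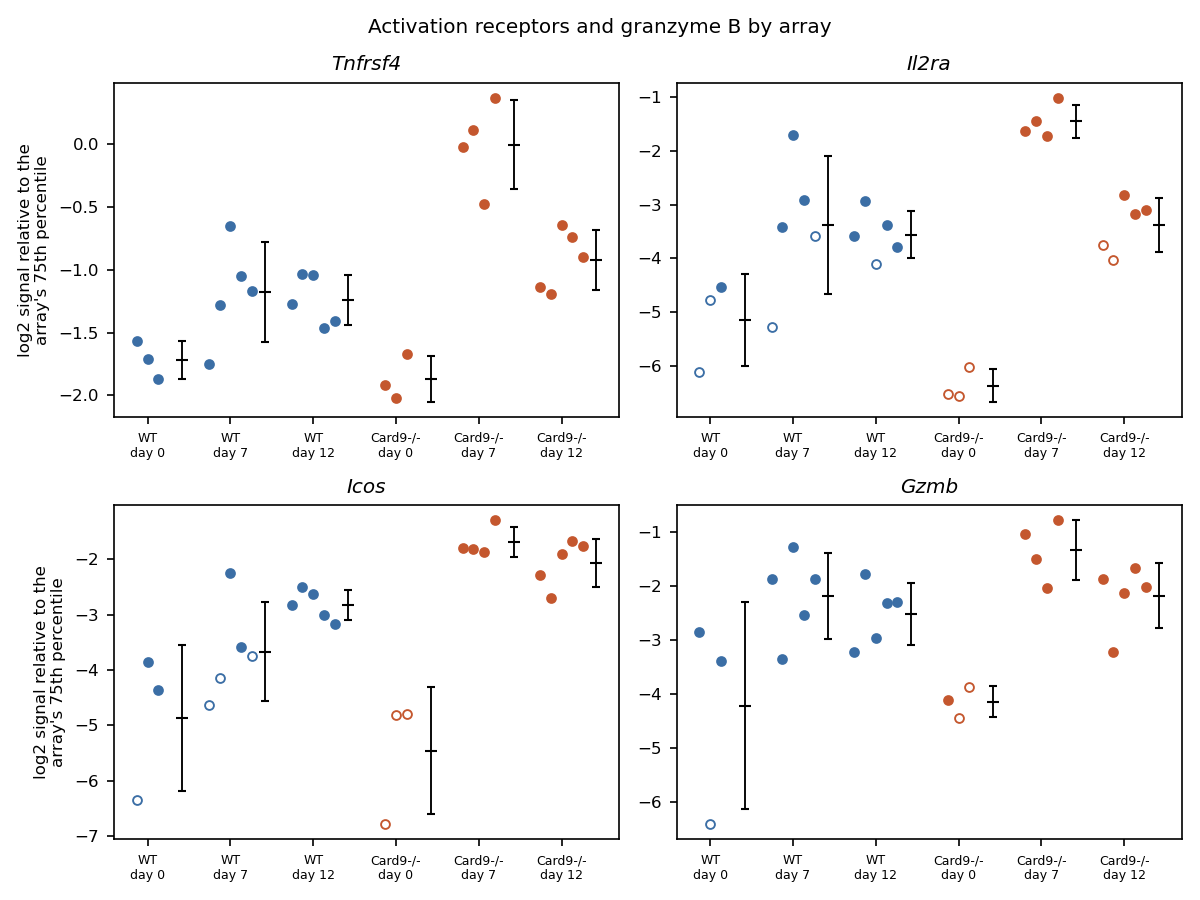
Level of Tnfrsf4, Il2ra, Icos and Gzmb on each array (log2, scaled to the 75th percentile of its array), by labelled genotype and day; filled points are well above background, open points are not, and bars give the mean ± SD of 3 to 5 arrays. In the arrays labelled Card9-/- the day 7 points of all 4 genes lie above the day 0 points, and among the WT day 7 points a single array reaches -1.71 for Il2ra.

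These 4 changes were as large without the 2 day 7 arrays that held acinar signal: without all 4 acinar arrays they were 2.04 for Tnfrsf4, 5.05 for Il2ra, 3.92 for Icos and 3.23 for Gzmb. With the proximal Hox mean as a covariate they were 1.64, 4.35, 3.21 and 2.87 in the same order. With the slide as a block they were 1.84, 4.58, 3.65 and 2.97, and on the 2 slides that held both groups the differences ran from 1.82 to 2.29 for Tnfrsf4 and from 4.66 to 5.51 for Il2ra. The sizes for the dim genes depend on the background correction: with normexp they were 1.48 for Tnfrsf4, 1.72 for Il2ra, 1.46 for Icos and 1.51 for Gzmb.

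From day 0 to day 12 of the Card9-/- time course, 3 of 9 tested genes were called higher (Icos, Il2ra and Tnfrsf4) and none lower, where 6.97% of all genes were called and 3.71% were called higher. The median change was 0.95, beside -0.029 over all genes. With the Hox mean as a covariate, Icos alone stayed called, and Il2ra (2.32, limma adjusted p = 0.075) and Tnfrsf4 (0.68, limma adjusted p = 0.199) did not. Tnfrsf4 was also lost without replicate 1 of the Card9-/- day 0 group (0.92, limma adjusted p = 0.0516) or without its replicate 2 (0.87, limma adjusted p = 0.0637). From day 7 to day 12, Tnfrsf4 and Il2ra fell and none rose, where 7.71% of all genes were called and 1.97% were called lower. The fall of Il2ra did not pass the test without the 4 acinar arrays (-1.96, limma adjusted p = 0.144), without replicate 4 of the Card9-/- day 7 group (-1.78, limma adjusted p = 0.0573) or without replicate 2 of the Card9-/- day 12 group (-1.76, limma adjusted p = 0.0501).

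In WT mice none of the 9 genes was called between day 0 and day 7, while 4.35% of all genes were called and 2.02% were called higher. In limma, 4 of the 9 and 17% of all genes had an unadjusted p under 0.05. The median change was 0.95, beside 0.026 over all genes, and all 9 differences were above 0. Il2ra read -6.12, -4.78 and -4.54 at day 0, -5.27, -3.41, -1.71, -2.91 and -3.58 at day 7 and -3.59, -2.94, -4.1, -3.38 and -3.78 at day 12. The day 7 WT arrays thus spread from the day 0 range up to the range of the arrays labelled Card9-/-, with replicate 1 lowest and replicate 3 highest. The difference of 1.77 ± 0.52 missed the threshold (limma adjusted p = 0.0566). It passed with the slide as a block (1.81, limma adjusted p = 0.036) and with the Hox mean as a covariate (1.99, limma adjusted p = 0.0207).

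Replicate 3 of WT day 7 was also the highest of its group for Tnfrsf4 (-0.65), Icos (-2.25) and Gzmb (-1.28). On that array the mean of 8 general leukocyte genes was 1.75 above WT day 0, against -0.04 to 0.74 on the other 4, and the mean of 10 neutrophil genes was 5.41, against 2.18 to 4.14. Replicate 1 had the lowest level in its group for Tnfrsf4 (-1.75) and Icos (-4.64), as for Il2ra, and was the WT day 7 array with the high proximal Hox mean (2.62, against -0.75 to 0.78 on the other 4). Without it, Il2ra (2.25, limma adjusted p = 0.00285) and Tnfrsf4 (0.68, limma adjusted p = 0.0348) were called higher at day 7 in WT, and Il2ra also at day 12 (1.59, limma adjusted p = 0.0396).

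The other WT values were as follows. Tnfrsf4 read -1.57, -1.71 and -1.87 at day 0, -1.75, -1.28, -0.65, -1.05 and -1.17 at day 7 and -1.27, -1.03, -1.04, -1.46 and -1.41 at day 12, and its change by day 7 was 0.54 ± 0.21 (limma adjusted p = 0.156). Icos read -6.36, -3.86 and -4.37, then -4.64, -4.15, -2.25, -3.58 and -3.74, then -2.82, -2.49, -2.62, -3.0 and -3.17 on these days. Gzmb read -2.85, -6.41 and -3.4 at day 0, and the low second array set the wide spread of that group. At day 7 it read -1.87, -3.36, -1.28, -2.54 and -1.88, a difference of 2.03 ± 0.60 (limma adjusted p = 0.0578) that was called without WT day 0 replicate 1 (2.72, limma adjusted p = 0.0323) or WT day 7 replicate 2 (2.33, limma adjusted p = 0.0323) and was 0.94 without the low WT day 0 replicate 2 (limma adjusted p = 0.453), and at day 12 -3.23, -1.78, -2.96, -2.32 and -2.31.

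At day 12 against day 0 in WT, none of the 9 was called, and 1.73% of all genes were. In limma, 5 of the 9 and 13.3% of all genes had an unadjusted p under 0.05. Icos stood nearest the threshold, with all day 12 arrays above all day 0 arrays (2.04 ± 0.53, limma adjusted p = 0.0502). Tnfrsf4, Il2ra and Cd8a also did not overlap between these days, but the share of all genes without overlap was not counted. Cd8a was above background on 0 of 3 day 0 arrays and 1 of 5 day 12 arrays. Icos was called at day 12 without WT day 0 replicate 2 (2.55, limma adjusted p = 0.0489), without Card9-/- day 0 replicate 1 (2.04, limma adjusted p = 0.0299), or without WT day 7 replicate 1 (2.04, limma adjusted p = 0.036) or 3 (2.04, limma adjusted p = 0.026). Without WT day 0 replicate 1, the dimmest of its group, the difference was 1.29 (limma adjusted p = 0.399). Between day 7 and day 12 in WT, none was called in limma, 1 had an unadjusted p under 0.05 (Cd8a, 0.97 ± 0.42) beside 13.1% of all genes, and 0.487% of all genes were called.

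**Figure D2:**
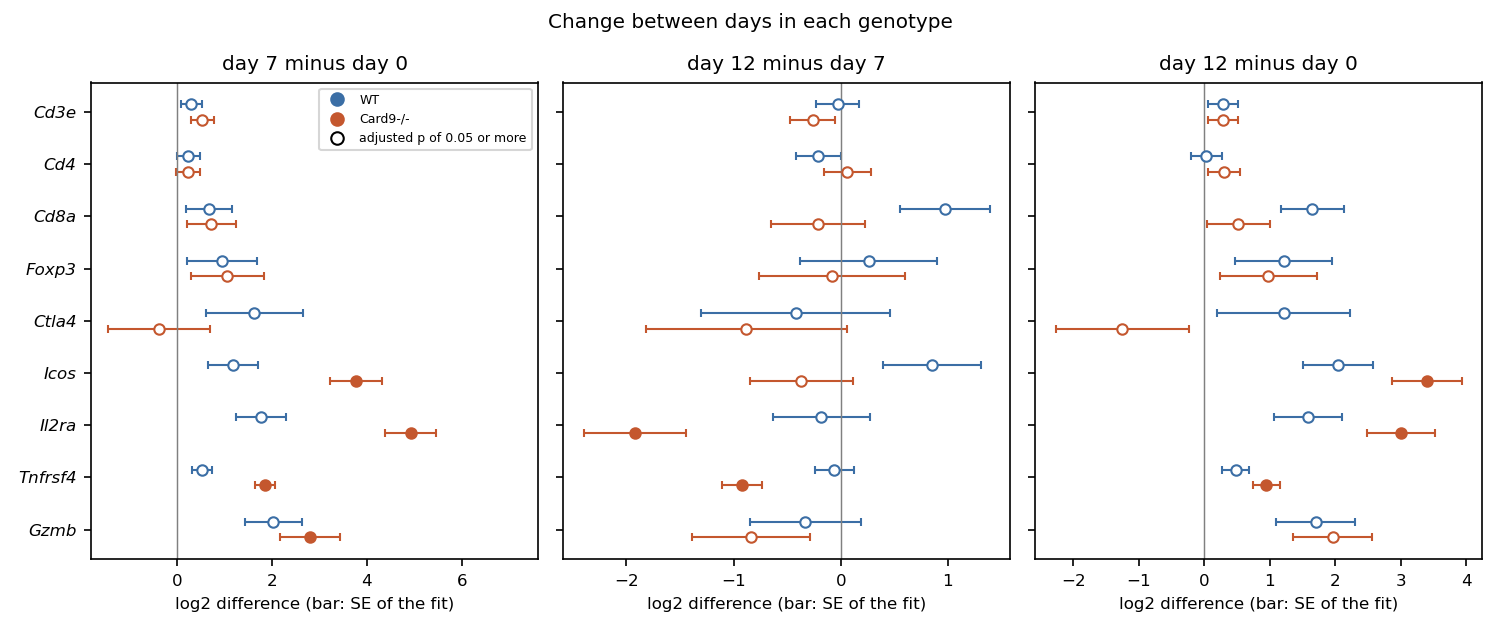
Log2 difference between days for the 9 tested genes in WT and in the arrays labelled Card9-/-, with the SE of the limma fit as bars and filled points where the adjusted p was under 0.05. Filled points occur for Icos, Il2ra, Tnfrsf4 and Gzmb and, among WT changes, there are none.

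The next question was whether the labelled genotypes differed. Before DSS none of the 9 genes was called, with 2 at an unadjusted p under 0.05 in limma (Ctla4 and Il2ra) beside 4.98% of all genes, and 0.00393% of all genes were called. At day 7, Tnfrsf4 was 2.26-fold higher in the arrays labelled Card9-/- than in WT, with no overlap between 4 and 5 arrays (log2 difference 1.18 ± 0.19, limma adjusted p = 0.0161). It was the 1 gene of 9 called, where 0.55% of all genes were called and 0.145% were called higher. Icos did not overlap between the groups either (1.98 ± 0.48, limma adjusted p = 0.0605), and Il2ra overlapped through the WT replicate 3 (1.92 ± 0.48, limma adjusted p = 0.0628). On the 4 slides, which each held both groups, the difference was above 0 on every slide for Tnfrsf4 (0.69 to 1.73), Icos (1.39 to 2.85) and Il2ra (1.11 to 3.64) and on 3 of 4 for Gzmb (-0.16 to 1.75). With the slide as a block, Tnfrsf4 (1.21, limma adjusted p = 0.00877), Icos (2.06, limma adjusted p = 0.0412) and Il2ra (2.04, limma adjusted p = 0.0357) were all called.

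The call on Tnfrsf4 did not hold without the 4 acinar arrays (1.35, limma adjusted p = 0.0964), in a fit of only the groups compared (1.18, limma adjusted p = 0.667), without WT day 7 replicate 2 (1.15, limma adjusted p = 0.0648) or without Card9-/- day 7 replicate 2 (1.14, limma adjusted p = 0.0535). Without WT day 7 replicate 3, Icos (2.34, limma adjusted p = 0.00567) and Il2ra (2.34, limma adjusted p = 0.00368) were called higher at day 7, and without WT day 0 replicate 1 so was Icos (1.98, limma adjusted p = 0.0476). Over all genes, 809 were called higher and 1464 lower without WT day 7 replicate 3, against 37 and 103 with every array and 1 and 0 without the 4 acinar arrays. At day 12 none of the 9 was called between genotypes, none had an unadjusted p under 0.05 in limma, and 0.0707% of all genes were called. Tnfrsf4 was then 0.32 ± 0.18 higher in the arrays labelled Card9-/- and Il2ra 0.19 ± 0.45.

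Whether the change over time itself differed between genotypes was tested as an interaction. For day 7 against day 0, the change was larger in the arrays labelled Card9-/- by 1.32 ± 0.30 for Tnfrsf4 (limma adjusted p = 0.201), 3.15 ± 0.75 for Il2ra (limma adjusted p = 0.221) and 2.58 ± 0.76 for Icos (limma adjusted p = 0.253). None of 9 was called, and 0.00393% of all genes were. In limma, 3 of the 9 and 11.6% of all genes had an unadjusted p under 0.05. Without WT day 7 replicate 3 all 3 were called, at 1.45 for Tnfrsf4 (limma adjusted p = 0.0168), 3.56 for Il2ra (limma adjusted p = 0.0134) and 2.94 for Icos (limma adjusted p = 0.0352). In that fit 240 of all genes were called with a higher and 288 with a lower change, against 1 of all genes with every array. For day 12 against day 7 none of 9 was called, with 2 at an unadjusted p under 0.05 in limma (Tnfrsf4 and Il2ra) beside 7.72% of all genes, and 0.00786% of all genes called. For day 12 against day 0 none was called, none had an unadjusted p under 0.05 in limma, and 0.00393% of all genes were called.

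The genes that mark T cells as such did not pass the test in any of these comparisons. Cd3e, a chain of the CD3 complex, read 0.85, 0.4 and 0.42 in WT and 0.53, 0.61 and 1.05 in arrays labelled Card9-/- at day 0, and 0.79, 1.34, 2.05 and 0.9 in the latter at day 7. Its change by day 7 there was 0.54 ± 0.24 (limma adjusted p = 0.137) and 0.12 without the 4 acinar arrays. Without Card9-/- day 7 replicate 1, one of the 2 day 7 arrays free of acinar signal, it was called (0.70, limma adjusted p = 0.0499).

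The 3 brightest Cd3e readings of the 25 were those of Card9-/- day 7 replicates 3 (2.05) and 2 (1.34) and day 12 replicate 1 (1.67), the 3 arrays with the strongest acinar signal. Over the 25 arrays, Cd3e correlated with the acinar mean at r = 0.82 and with Cd3d, another CD3 chain, at r = 0.34. Over the 21 arrays without strong acinar signal these were 0.45 and 0.56. The 5 genes whose pattern over the 25 arrays was most like that of Cd3e among 14003 candidates were Ins2 (r = 0.88), Flot2 (0.88), Erp27 (0.86), Synrg (0.86) and Ctrc (0.86), of which Ins2 encodes an insulin and Ctrc and Erp27 are pancreatic genes. The part of pancreatic signal in the Cd3e readings was not tested beyond these values, all of which share arrays and scaling.

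**Figure D3:**
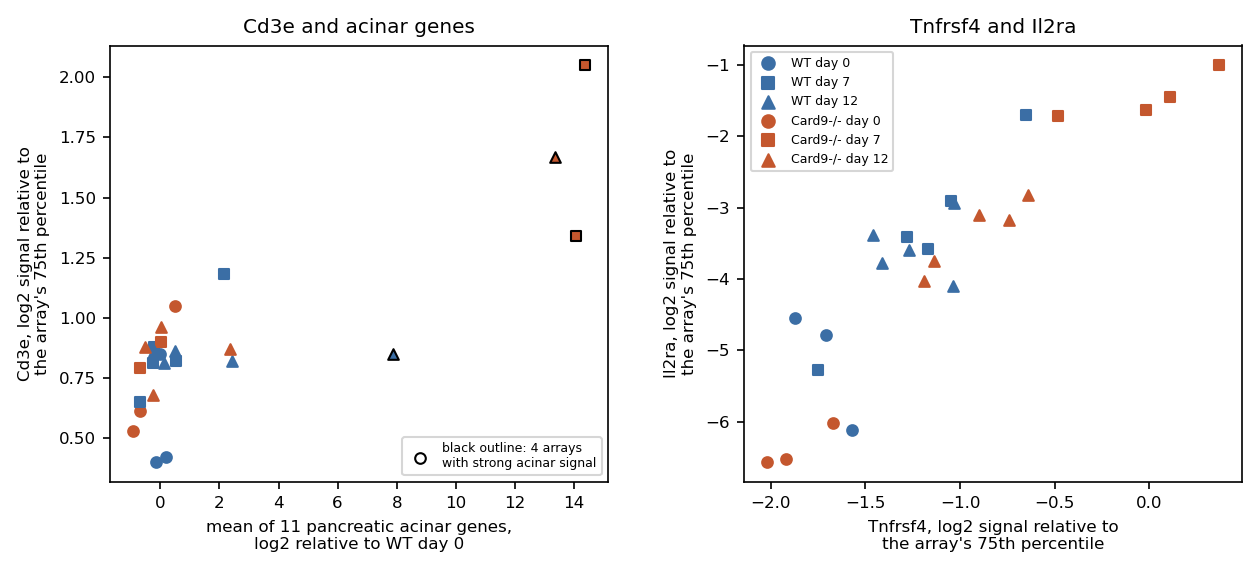
Left, level of Cd3e on each of 25 arrays against the mean of 11 pancreatic acinar genes; right, level of Il2ra against Tnfrsf4 (all axes log2; colour gives the labelled genotype, shape the day). The 3 arrays with the highest acinar means (13.36 to 14.38) have the 3 highest Cd3e levels (1.34 to 2.05), while Il2ra and Tnfrsf4 rise together along the diagonal (r = 0.9).

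Cd4, the co-receptor of helper and regulatory T cells, read between 1.31 and 2.56 on the 25 arrays with a median of 1.72. Group means ran from 1.59 ± 0.14 (SD, n = 3) in WT day 0 to 1.94 ± 0.33 (SD, n = 5) in the arrays labelled Card9-/- at day 12, a span smaller than the SD of 0.51 within WT day 7. The highest were WT day 7 replicate 5 (2.56) and Card9-/- day 12 replicate 1 (2.53). Over the 25 arrays, this probe correlated with the acinar mean at r = 0.59 and with Ins2 at 0.68. With the mean of other genes of the T cell receptor complex and its proximal signalling it gave 0.17. Over the 21 arrays without strong acinar signal these were 0.20, 0.80 and -0.02. The part of pancreatic signal in the Cd4 readings was not tested. The other Cd4 probe, spotted 10 times, was above background in 45 of 250 spot readings.

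Cd8a, the co-receptor of cytotoxic T cells, was well above background on 3 of 25 arrays: WT day 12 replicate 5 (-4.32), Card9-/- day 7 replicate 4 (-3.97) and Card9-/- day 12 replicate 4 (-4.83). Its other probe was above background in 25 of 250 spot readings. In WT it read -6.02, -6.96 and -6.72 at day 0 and -4.79, -4.91, -5.56, -5.03 and -4.32 at day 12, a difference of 1.65 ± 0.48 that missed the threshold (limma adjusted p = 0.089) and passed it in a fit of only these groups (limma adjusted p = 0.0441). Most of these readings were not well above background, so the difference rests on dim signal.

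Foxp3, the factor that defines regulatory T cells, was well above background on 8 of 25 arrays, none of them at day 0. The 8 were WT day 7 replicates 4 (-3.96) and 5 (-1.59), WT day 12 replicates 2 (-2.5) and 5 (-3.49), and in the arrays labelled Card9-/- day 7 replicates 1 (-4.21) and 4 (-3.53) and day 12 replicates 3 (-3.81) and 5 (-3.82). Day 7 and day 12 arrays of both genotypes overlapped. In the arrays labelled Card9-/-, the lowest day 7 reading (-5.05) lay barely above the highest day 0 reading (-5.06). Changes from day 0 were 0.95 ± 0.74 and 1.21 ± 0.74 in WT and 1.06 ± 0.77 and 0.98 ± 0.74 in the arrays labelled Card9-/-, for days 7 and 12, and none passed the test (limma adjusted p = 0.566, 0.53, 0.4 and 0.565). Between genotypes at day 7 Foxp3 differed by -0.10 ± 0.68, with an SE larger than that of Tnfrsf4 (0.19).

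Ctla4, which competes with CD28 for its ligands, was well above background on 6 of 25 arrays. Of these, 2 belonged to the untreated Card9-/- group, which read -7.15, -0.9 and -3.7 and so spanned the whole range of the gene over the 25 arrays. The others were WT day 7 replicate 5 (-2.97), WT day 12 replicate 5 (-2.63) and Card9-/- day 7 replicates 1 (-4.48) and 4 (-3.19). The difference between genotypes at day 0 was 2.64 ± 1.14 (limma adjusted p = 0.94), with overlapping groups.

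Il10, the cytokine by which regulatory T cells and macrophages restrain inflammation, stayed at background on all 25 arrays. Its probe was spotted 10 times on each array and 12 of 250 spot readings were above background. Array averages lay between -6.94 and -5.21, highest in WT day 7 replicate 5 (-5.21) and Card9-/- day 7 replicates 3 (-5.39) and 2 (-5.6). Fitted without the filter, Il10 changed by 0.87 ± 0.30 between day 0 and day 7 in the arrays labelled Card9-/- (limma adjusted p = 0.0631), and in the deposited value table by 0.27 ± 0.28 (limma adjusted p = 0.582). Both groups lay at background, so neither value is a measured change.

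**Figure D4:**
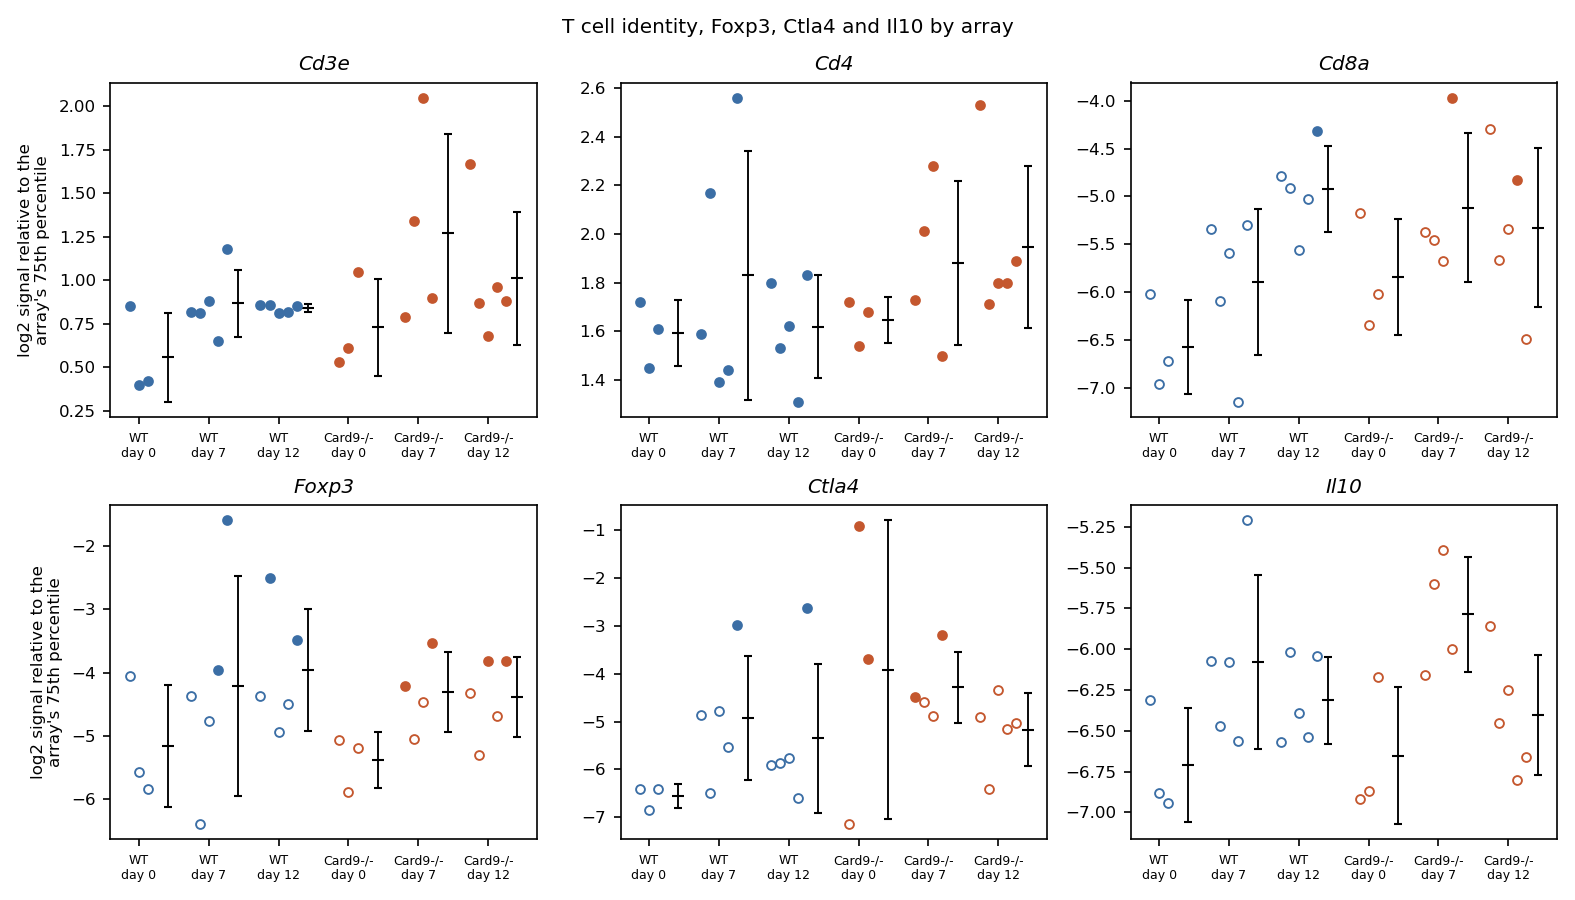
Level of Cd3e, Cd4, Cd8a, Foxp3, Ctla4 and Il10 on each array (log2, scaled to the 75th percentile of its array), by labelled genotype and day; filled points are well above background and bars give the mean ± SD of 3 to 5 arrays. Cd3e and Cd4 are filled on all 25 arrays, Foxp3 on 8, Ctla4 on 6, Cd8a on 3 and Il10 on none.

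Ordered by group mean, the 6 groups ran alike for Tnfrsf4 and Il2ra. For Il2ra, the order of the 2 day 0 groups rests on dim readings. They were above background on 1 of 3 WT arrays and 0 of 3 arrays labelled Card9-/-. Tnfrsf4 rose from Card9-/- day 0 (-1.87 ± 0.18 SD) over WT day 0 (-1.72 ± 0.15), WT day 12 (-1.24 ± 0.20), WT day 7 (-1.18 ± 0.40) and Card9-/- day 12 (-0.92 ± 0.24) to Card9-/- day 7 (-0.01 ± 0.35). Il2ra followed the same order, from -6.37 ± 0.30 to -1.45 ± 0.31, and the 3 groups WT day 12 (-3.56 ± 0.44), WT day 7 (-3.38 ± 1.29) and Card9-/- day 12 (-3.37 ± 0.50) lay within 0.19 of each other. For Icos, WT day 7 (-3.67 ± 0.89) came below WT day 12 (-2.82 ± 0.28), with Card9-/- day 12 (-2.06 ± 0.43) and day 7 (-1.69 ± 0.27) on top. For both Tnfrsf4 and Il2ra, the step from Card9-/- day 12 to Card9-/- day 7 exceeded the SD of either group, while no step among the 3 middle groups exceeded the larger SD of the pair.

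Array by array, Il2ra and Tnfrsf4 correlated at r = 0.90 over 25 arrays, Icos and Il2ra at 0.87 and Icos and Tnfrsf4 at 0.80. After each group mean was subtracted these were 0.68, 0.75 and 0.49. Cd3e, whose readings were highest on arrays with strong acinar signal, gave 0.39 with Il2ra, 0.42 with Tnfrsf4 and 0.40 with Icos. Within groups these were -0.21, -0.30 and -0.14. The mean of other genes of the T cell receptor complex and its proximal signalling gave 0.78, 0.80 and 0.86 in the same order. Within groups that mean gave 0.56, 0.58 and 0.58. Gzmb correlated with Il2ra at 0.71 and within groups at 0.09. The genes most like Gzmb among 14003 candidates were Aoah (r = 0.83), Gzma (0.82), Ccl12 (0.81), S100a9 (0.80) and Fpr1 (0.80), a mix of a second granzyme with genes of myeloid cells. Among those most like Foxp3 were Gzmk (0.75), Slc25a48 (0.72), Orc2 (0.70) and Prex2 (0.69). Those most like Il10 were Epb41l2 (0.81), Susd3 (0.81), BC147527 (0.80), Astn2 (0.80) and Spsb1 (0.79), over readings at background. These are descriptions over arrays that share groups and scaling.

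Genes of the same pathways were then counted, leaving out the 10 genes themselves, for the change from day 0 to day 7 under the Card9-/- label; some genes stand on more than one list. Over all genes 6.93% were called higher in this comparison (1763 genes), with 1283 called higher without the 4 acinar arrays and 1283 with the Hox covariate. Of the T cell receptor complex and its proximal signalling, 8 of 15 rose and none fell, among them Cd6 (2.13 ± 0.38), the kinase Txk (1.46 ± 0.24), the kinase Zap70 (1.26 ± 0.22) and the adaptor Fyb (1.33 ± 0.30). Their median change was 1.19. The count was 7 without the 4 acinar arrays and 4 with the Hox mean as a covariate.

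Of co-stimulatory and checkpoint receptors and ligands, 13 of 14 rose and none fell, with a median of 1.69. They included Cd86 (3.52 ± 0.54), a ligand of CD28 and CTLA-4, Cd40 (3.87 ± 0.80), the checkpoint receptor Havcr2 (at least 3.62-fold) and Tnfrsf18 (0.91 ± 0.19), which encodes GITR. The count fell to 5 without the acinar arrays and to 6 with the Hox covariate. Several of these genes, such as Cd86 and Cd40, belong mainly to antigen-presenting cells.

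Of interleukin-2 and interleukin-10 ligands and receptors, 9 of 14 rose and 1 fell, with a median of 1.56. Among the risers were the shared gamma chain Il2rg (2.87 ± 0.51), the interleukin-10 receptor Il10ra (3.64 ± 0.71), Ebi3 (2.09 ± 0.39) and Tgfb1 (1.65 ± 0.32), and the gene that fell was Il15, named after its value was seen. The counts were 8 up and 1 down without the acinar arrays and 5 up and 1 down with the Hox covariate. Il2rg encodes 1 of the chains that join the Il2ra protein in the high-affinity receptor. Il2rb, which encodes another, was also called higher.

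Of other regulatory T cell genes, 7 of 14 rose and none fell, with a median of 0.90. The largest of those named was Il1rl1 (7.25 ± 0.87), the interleukin-33 receptor, which mast cells and innate lymphoid cells also carry, and Entpd1 (2.21 ± 0.45), Ebi3 and Tnfrsf18 rose with it. The count was 5 in each of the 2 alternatives on doubted arrays. Ikzf2 (Helios) was among the genes called higher in WT at day 7 (1.82 ± 0.42, limma adjusted p = 0.0156) and day 12 (2.04 ± 0.42, limma adjusted p = 0.0129). In the arrays labelled Card9-/- it was not called against day 0 at either day.

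Trafficking and naive-state genes gave 11 of 16 higher and 1 lower (median 1.40), with the chemokine receptor Ccr7 (4.45 ± 0.83) and the gut-homing integrin Itgb7 (1.67 ± 0.34) among them. Bcl11b, named after its value was seen, was the 1 lower. The counts were 9 and 0 without the acinar arrays and 6 and 1 with the Hox covariate. Helper T cell genes gave 8 of 15 higher and 1 lower (median 0.86), among them the type 1 cytokine Ifng (at least 8.86-fold), Gata3 (2.42 ± 0.56), Stat4 (2.34 ± 0.37) and Stat3 (0.80 ± 0.19), with Stat6, named after its value was seen, the 1 lower. These were 5 and 0, and 6 and 0, under the same alternatives. Cytotoxic genes other than Gzmb gave 6 of 18 higher (median 0.52), with Gzmc (at least 2.93-fold), Cst7 (1.63 ± 0.37), Ccl5 (1.36 ± 0.44) and Serpinb9 (0.89 ± 0.27), and 2 and 1 under the alternatives.

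Ifng followed Il2ra and Tnfrsf4 in falling from day 7 to day 12 in these arrays (-3.47 ± 0.99, limma adjusted p = 0.036), as did the checkpoint ligand Cd274 (-2.04 ± 0.39, limma adjusted p = 0.00443) the chemokine Xcl1 (-1.10 ± 0.30, limma adjusted p = 0.0273) and the helper cell factor Rora (-1.01 ± 0.29, limma adjusted p = 0.0355). At day 12 against day 0 the counts of higher genes were 7 of 15 for the receptor complex, 8 of 14 for co-stimulation, 6 of 14 for interleukin receptors, 6 of 16 for trafficking, 5 of 14 for regulatory T cells, 3 of 15 for helper and 1 of 18 for cytotoxic genes, where 3.71% of all genes (943) were called higher. Il15 of the interleukin list was called lower. With the Hox mean as a covariate these 7 counts were 0, 1, 0, 0, 1, 0 and 0, and 167 of all genes were called higher.

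In WT at day 7 the counts of higher genes were 1 of 15 (Txk), 0 of 14, 0 of 14, 1 of 16, 2 of 14 (Ikzf2 and Il1rl1), 2 of 15 (Gata3 and Stat3) and 1 of 18 (Gzmc), for the receptor complex, co-stimulation, interleukin receptors, trafficking, regulatory, helper and cytotoxic lists, and Nkg7 of the cytotoxic list fell (-1.57 ± 0.38, limma adjusted p = 0.0211). Over all genes 2.02% (514) were called higher. With the Hox covariate, which raised that to 782, the counts were 2 of 14 for co-stimulation and 5 of 15 for helper genes, and those of the other 5 lists were the same. Cd3d rose in WT by day 12 (1.00 ± 0.25, limma adjusted p = 0.0394). Between genotypes at day 7, Txk was the one gene called over these 7 lists (1.01 ± 0.21, limma adjusted p = 0.0408), and none was called without the 4 acinar arrays or with the Hox covariate. No gene of the 7 lists was called in the limma interaction of genotype with day 7, so the counts in WT and in the arrays labelled Card9-/- are not shown to differ.

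**Figure D5:**
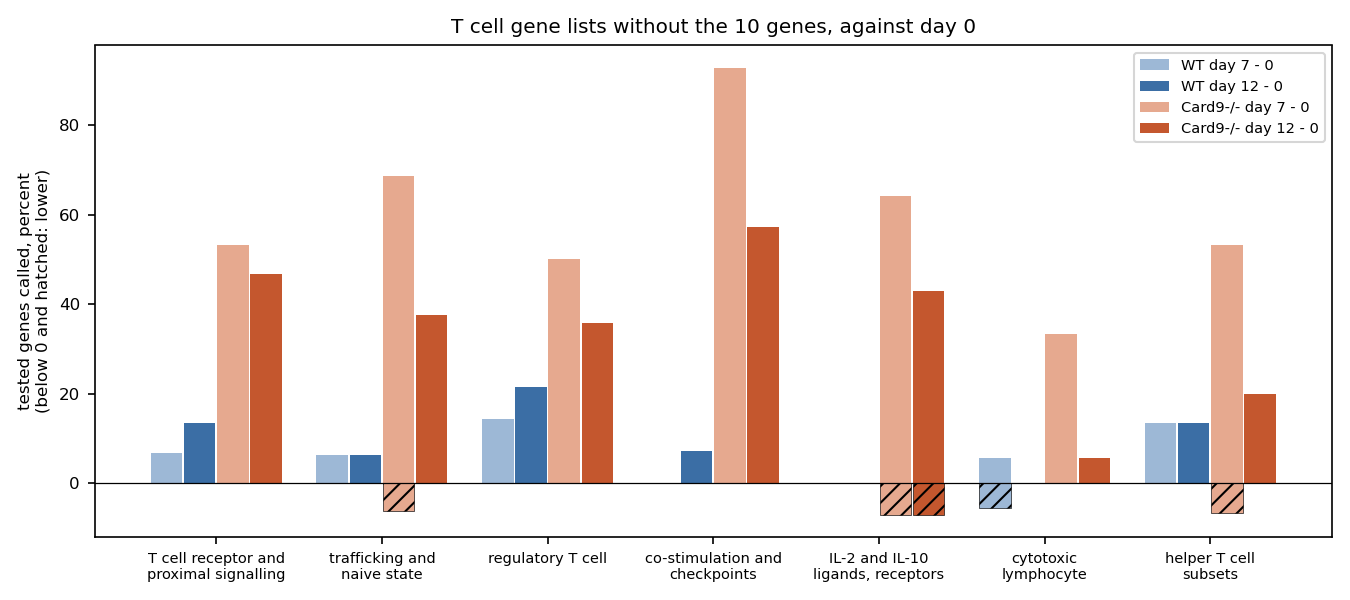
Percent of the tested genes of 7 T cell gene lists, without the 10 genes, called higher (above 0) or lower (hatched, below 0) against day 0 in WT and in the arrays labelled Card9-/-. In the latter at day 7, 13 of 14 co-stimulation genes and 11 of 16 trafficking genes were called higher, and in WT at day 7, 0 of 14 and 1 of 16. Without the acinar arrays the 13 became 5, and no gene of these lists passed the test of a difference between genotypes in the change by day 7.

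Markers of several other cell types moved with these groups. Comparing day 7 with day 0 under the Card9-/- label, 7 of 8 general leukocyte genes rose (per-array means 1.38 to 1.74 against -1.31 to 0.39), as did 9 of 10 neutrophil genes (5.22 to 5.88 against -0.58 to 0.29), 10 of 11 macrophage genes with 1 lower (1.62 to 2.01 against -0.71 to -0.41), 4 of 12 B cell genes (0.39 to 1.58 against -1.77 to 0.7) and 5 of 5 red blood cell genes (1.95 to 4.69 against -1.16 to -0.12). So did 6 of 8 genes of lymphoid follicle stroma (1.43 to 2.41 against -2.02 to 0.81) and 6 of 8 mast cell genes with 1 lower (1.61 to 2.24 against -0.59 to 0.44). At day 0, replicates 1 and 2, with the high proximal Hox means, read -1.31 and -1.11 for leukocyte genes, and replicate 3 read 0.39. They read -1.77 and -1.75 for B cell genes and -2.02 and -1.76 for follicle genes, with replicate 3 at 0.7 and 0.81. Of 13 epithelial genes 4 fell and of 8 smooth muscle genes 2 fell, with none higher in either list. Natural killer and innate lymphoid genes gave 2 of 8 higher and 1 lower, and dendritic cell genes 3 of 6 higher and none lower. Over all genes 6.93% were called higher and 12.7% lower in this comparison. None of these marker counts was repeated with the Hox covariate or without the acinar arrays. Before DSS, 6 of the 10 neutrophil genes and none of the 8 leukocyte genes were below background on every array labelled Card9-/-. In WT at day 7, 6 of 10 neutrophil genes rose (2.18 to 5.41 against -0.29 to 0.22), where 2.02% of all genes were called higher. The leukocyte means there were -0.04 to 1.75. Over the 25 arrays the leukocyte mean correlated with Icos at r = 0.90, Il2ra at 0.85, Tnfrsf4 at 0.80, Gzmb at 0.52 and Cd3e at 0.37, and within groups at 0.78, 0.70, 0.54, -0.13 and -0.07. The neutrophil mean gave 0.85 with Icos, 0.94 with Il2ra and 0.90 with Tnfrsf4, and within groups 0.59, 0.75 and 0.79. The macrophage mean gave 0.82, 0.91 and 0.84 in that order, and within groups 0.67, 0.65 and 0.44. In bulk tissue, more cells of a type and more RNA per cell cannot be told apart, and the part of these cells in the changes of the 10 genes was not tested.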

How the data were processed

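Total RNA of mouse colon (100 ng, RIN over 7, per the labels) was hybridised to 1-colour Agilent arrays, and each deposited scanner file gives, per the file headers, the processed intensity (Feature Extraction 10.7.3.1, background-subtracted) of 62976 spots. The authors' deposited value table holds log2 values of the same arrays, with centring unstated, and served as an alternative. Control spots and flagged outlier spots were left out, spots of a probe averaged, and log2 levels taken relative to each array's 75th percentile. A probe was kept if well above background on 3 of 25 arrays (36263 of 55681). The kept probe with the highest mean stood for its gene. Of all probes, 27656 were named by accession, 3722 by symbol and 24303 kept the file's name.

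A single limma 3.58.1 model (R 4.3.3) of the 6 groups gave every contrast, with Benjamini-Hochberg adjustment over 25447 or 25448 genes and a threshold of 0.05. The script was tested on simulated data. The design text names 5 Card9-/- mice at day 7, of which 4 were analysed here. Genes of the lists were named as the up to 4 called genes of a list with the lowest p, and genes of like pattern as the 5 with the highest Pearson r over 25 arrays among genes above background on 13 or more; some genes these rules name are not reported here. The 10 genes, the lists and the tests were chosen with earlier results of these data known. Whether same-numbered arrays are pairs was checked from correlations of their deviations (54 pairs, median 0.04), and they were treated as unpaired. Alternatives covered background correction, scaling, filter, probe choice, slide and replicate blocks, groups fitted and arrays left out. Normexp used an offset of 50.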

Additional observations from a re-analysis of the deposited data

Results flagged for a closer look

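In 4 of 40 tests of a gene within a group of 4 or 5 arrays, the highest array stood apart from the others, where chance gives about 1 in 20. Cd3e (1.67) and Cd4 (2.53) were highest on replicate 1 of the arrays labelled Card9-/- at day 12, which carried an acinar mean of 13.36. Ctla4 was highest on WT day 12 replicate 5 (-2.63), whose acinar mean was 7.86. The part of pancreatic signal in these readings was not tested. Icos was highest on Card9-/- day 7 replicate 4 (-1.29), an array with no strong acinar signal, which stood above the other 3 (-1.87 to -1.79).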

How the results depend on the processing

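No called result changed sign under the alternatives. Results that were not called did: between genotypes at day 7, Foxp3 (-0.10) was 0.06 with normexp, 0.21 with the replicate block and 0.35 without the acinar arrays, Cd3e (0.40) was -0.02 without the acinar arrays and Cd8a (0.77) was -0.02 in the deposited value table. The rises of Icos, Il2ra, Tnfrsf4 and Gzmb by day 7 in the arrays labelled Card9-/- passed the test in all 37, with largest adjusted p-values of 0.00821, 0.00103, 0.00531 and 0.0201 in limma. Between genotypes at day 7, 1 of the genes was called, but 2 with normexp, 3 each with the deposited value table, the filter of 13 arrays and the slide block, and 0 in a fit of only the groups compared or without the 4 acinar arrays. In WT by day 7, 0 were called, but 1 each with normexp, the slide block and the Hox covariate, and 2 with the filter of 13 arrays. In WT by day 12, 0 were called, but 1 each with that filter, the mean of a gene's probes, a fit of only the groups compared and the Hox covariate. In the arrays labelled Card9-/-, 2 were called from day 7 to 12, but 1 with quantile normalization or without the acinar arrays, and 3 at day 12 against day 0, but 1 with the Hox covariate. That last count was 2 with normexp and 4, with Gzmb added, under quantile normalization, the filter of 13 arrays or a fit of only the groups compared, while in the value table Gzmb took the place of Il2ra. For the gene lists, the counts with the Hox covariate and without the acinar arrays were chosen after seeing the data.

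With the replicate number as a block, Icos was called in WT by day 12 (2.00, limma adjusted p = 0.0485), so that 1 gene was called in place of 0. The correlations do not settle whether the numbers mark pairs. They ran from -0.44 to 0.68 (median 0.04) for same-numbered arrays and from -0.47 to 0.51 (median 0) for the others. The block changed no other count.

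Leaving out each array in turn, the number of the genes called ran from 0 to 3 between genotypes at day 7, 0 to 2 in WT by day 7 and 0 to 2 by day 12, 4 to 5 in the arrays labelled Card9-/- by day 7, 1 to 2 from day 7 to 12, 2 to 4 by day 12, and 0 to 3 for the interaction of genotype with day 7. It was 0 throughout for the other comparisons. Over all genes the calls ran from 4 to 2273 between genotypes at day 7 and from 0 to 528 for that interaction. Foxp3, Ctla4, Cd8a and Il10 were above background on 8, 6, 3 and 0 of 25 arrays, which limits what can be said of them, and 3 untreated arrays per genotype limit every comparison with day 0.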
